A study of Bos taurus with 18 samples.

Results

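Transporters that move protons, bicarbonate, chloride or sulphate across epithelial membranes were followed in rumen papillae, the finger-like projections that line the first stomach of cattle. The set held SLC9A2, SLC9A3 and SLC9A8 of the sodium-proton exchanger family, SLC4A2, SLC4A7 and SLC4A9 of the bicarbonate transporter family, and SLC26A2, SLC26A3 and SLC26A9 of the anion exchanger family. These 9 genes were picked by symbol from the 27270 genes of the deposited count table, and each symbol was found. The study biopsied 9 rumen-cannulated, non-lactating Holstein cows, first on a baseline diet of 100% forage and then on a high-grain diet with 65% concentrate. Of these cows 4 received a supplement that the labels call PHY and do not expand, and 5 were controls. The 18 RNA-seq libraries fell into grain_PHY (high grain with PHY, n = 4), grain_control (high grain, n = 5), forage_PHY (forage, PHY cows, n = 4) and forage_control (forage, n = 5). The labels give no age, do not say whether PHY was already fed at the forage biopsy and tie no library to a cow. Libraries of the same cows were therefore compared as if independent, and the p-values measure the spread between libraries.

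Microbes in the rumen ferment feed to short-chain fatty acids, which the stratified epithelium of the papillae absorbs. An acid that crosses the membrane in its protonated form releases a proton in the cell. Sodium-proton exchangers export such protons in exchange for sodium. Bicarbonate transporters bring base into the cell or move it back to the lumen, where it buffers the rumen fluid. Much of what is known of single family members comes from human and mouse intestine, kidney and stomach, and the roles given here rest on those species unless stated otherwise.

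Totals ran from 3953060 to 34471682 reads per library. Grain libraries averaged 13416800 ± 6765010 reads and forage libraries 25166600 ± 7554010 reads (SD, n = 9 each; exact permutation p = 0.00317, two-sided). Reads on 144 olfactory receptor genes, silent in most tissues, stood at 32.9 to 345.3 CPM (counts scaled to library size) on grain and at 16.3 to 65.0 CPM on forage (exact permutation p = 0.0021, two-sided). Depth and this background thus moved with diet, and their part in the diet results was not tested beyond the refits given beside them. The stratified epithelium markers summed to 4511 to 15981 CPM in grain_PHY and 5541 to 16085 CPM in grain_control, against 14071 to 16467 CPM in forage_PHY and 8356 to 21132 CPM in forage_control. All 10 of these markers were in the table, led by KRT5, KRT14 and KRT6A, whereas KRT10 averaged 3.36 CPM on grain and 3.59 CPM on forage and KRT1 3.33 CPM on grain and 1.09 CPM on forage. On grain over both arms SFN and TP63 were called lower, at log2 changes of −1.0002 and −0.65, and KRT1 and DSG1 higher, at 1.62 and 0.89, while KRT5, KRT14 and KRT6A did not pass (edgeR). Of all genes tested, 18.1% were called higher and 13.8% lower. At a mean log2 CPM of 0 to 2, 38.1% were called higher, and over 6, 51.5% were called lower. No change particular to the epithelium is therefore read from these marker calls. The part of the marker changes in the results was not tested. In bulk tissue, fewer cells of a type and less RNA per cell cannot be told apart.

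No single transporter took the most reads in every group. SLC26A3 had the highest mean in grain_PHY at 48.7 CPM, SLC26A2 in grain_control at 79.7 CPM, SLC9A2 in forage_PHY at 68.9 CPM and SLC26A2 in forage_control at 95.1 CPM. Together with SLC4A7 and SLC4A9 these 3 genes filled the first 5 places in every group. SLC9A8 was 8th and SLC26A9 was 9th in every group. Neighbours in this order overlapped in their range over libraries, with 6 exceptions. SLC9A8 stood clear above SLC26A9 in each of the 4 groups, SLC4A7 clear above SLC4A2 in forage_PHY, and SLC4A2 clear above SLC9A8 in forage_control. CPM here is the count scaled by the TMM effective library size, a total adjusted for composition, and it is not scaled by transcript length. The order is therefore one of reads and not of transcripts.

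**Figure D1:**
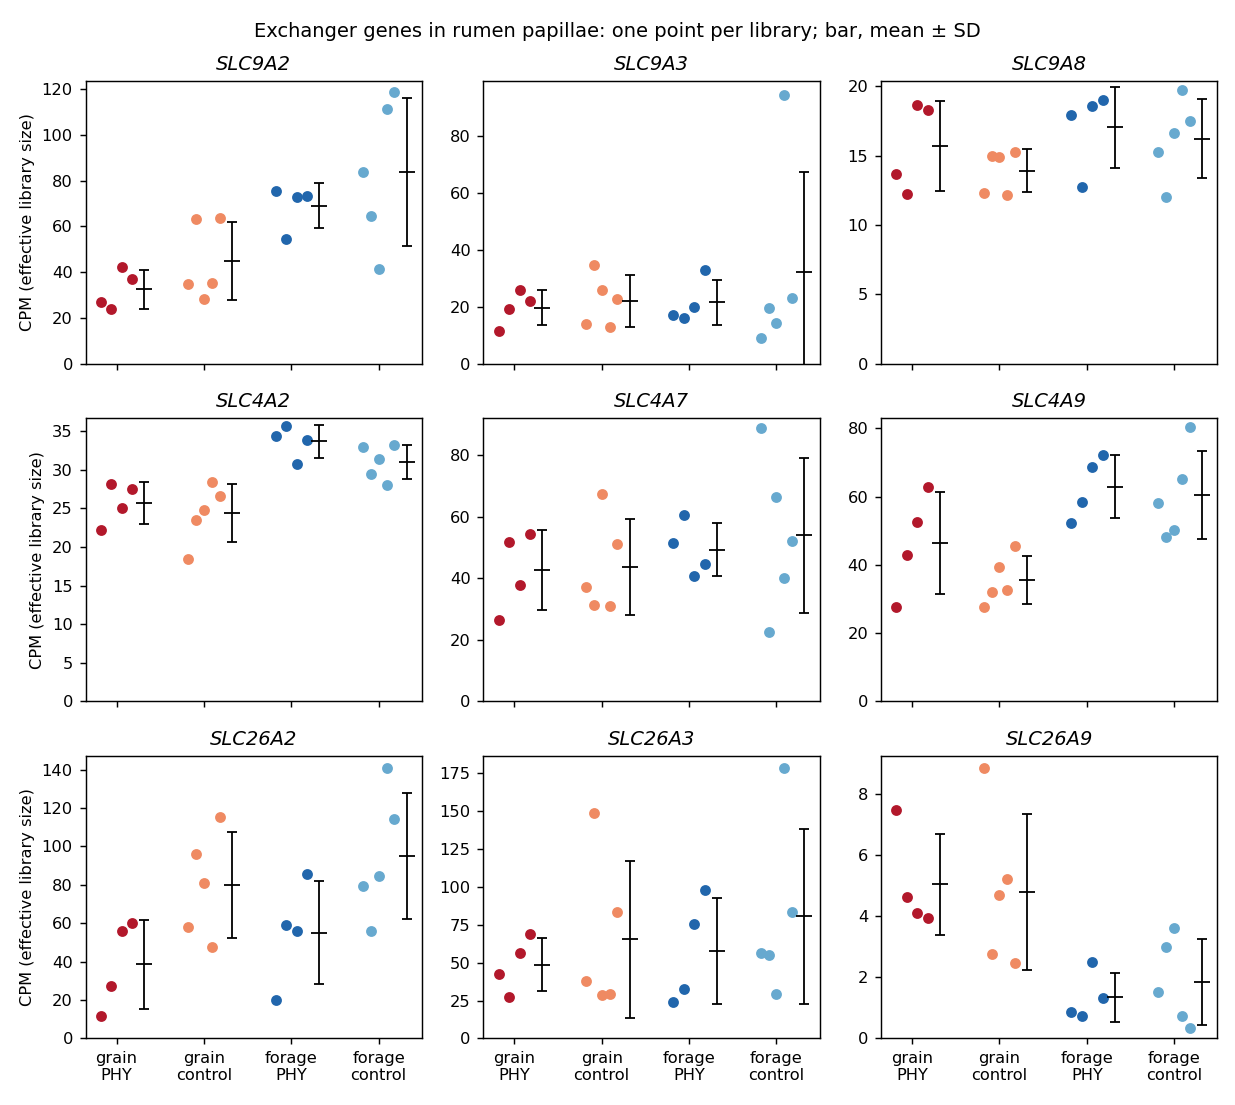
Level of each of the 9 transporters in every library, as CPM from TMM effective library sizes, not scaled by length. Points are libraries, ordered as grain_PHY (n = 4), grain_control (n = 5), forage_PHY (n = 4) and forage_control (n = 5), and bars show mean ± SD, cut at 0. SLC9A2 lies lower in the grain groups and SLC26A9 higher, while 1 forage_control library of SLC9A3 stands at 94.4 CPM.

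Within each family a few genes held most of the reads. SLC9A2, an apical sodium-proton exchanger (NHE2) of gut epithelia, took 28.9% ± 6.25 of the reads on the 11 SLC9 genes of the table in grain libraries and 42.3% ± 6.45 in forage libraries (SD, n = 9 each). SLC9A3 (NHE3), the main apical exchanger for sodium uptake in intestine and kidney, took 15.5% ± 3.91 on grain and 13.8% ± 7.999 on forage. The share of SLC9A2 thus exceeded that of SLC9A3 on average on both diets, with ranges that did not overlap on grain (21.9% to 40.04%, against 10.5% to 21.2% for SLC9A3) and overlapped on forage (31.5% to 53.7%, against 5.33% to 33.1%). SLC9A8 (NHE8), found on internal membranes and on the apical membrane of gut cells, took 11.1% ± 1.38 on grain and 9.44% ± 1.83 on forage.

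Among the 10 SLC4 genes, SLC4A9, SLC4A7 and SLC4A2 together led. SLC4A7 (NBCn1), which brings sodium and bicarbonate into the cell together and is a cotransporter and no exchanger, took 29.95% ± 7.52 on grain and 31.4% ± 8.30 on forage (SD, n = 9 each). SLC4A9 (AE4), an anion exchanger known from kidney, took 28.1% ± 6.93 on grain and 38.4% ± 6.88 on forage. SLC4A2 (AE2), the chloride-bicarbonate exchanger of the basolateral membrane of many epithelia, took 17.6% ± 2.72 on grain and 20.1% ± 2.08 on forage. Among the 11 SLC26 genes, SLC26A2, a sulphate transporter that exchanges sulphate for other anions, took 37.5% ± 13.2 on grain and 45.0% ± 8.75 on forage. SLC26A3 (DRA), the apical chloride-bicarbonate exchanger of the colon, took 34.7% ± 11.2 on grain and 38.98% ± 10.2 on forage. SLC26A9, a chloride transporter and channel of stomach and airway, took 4.32% in grain_PHY and 3.05% in grain_control, against 1.06% in forage_PHY and 1.19% in forage_control. These shares are of reads and were not tested.

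**Figure D2:**
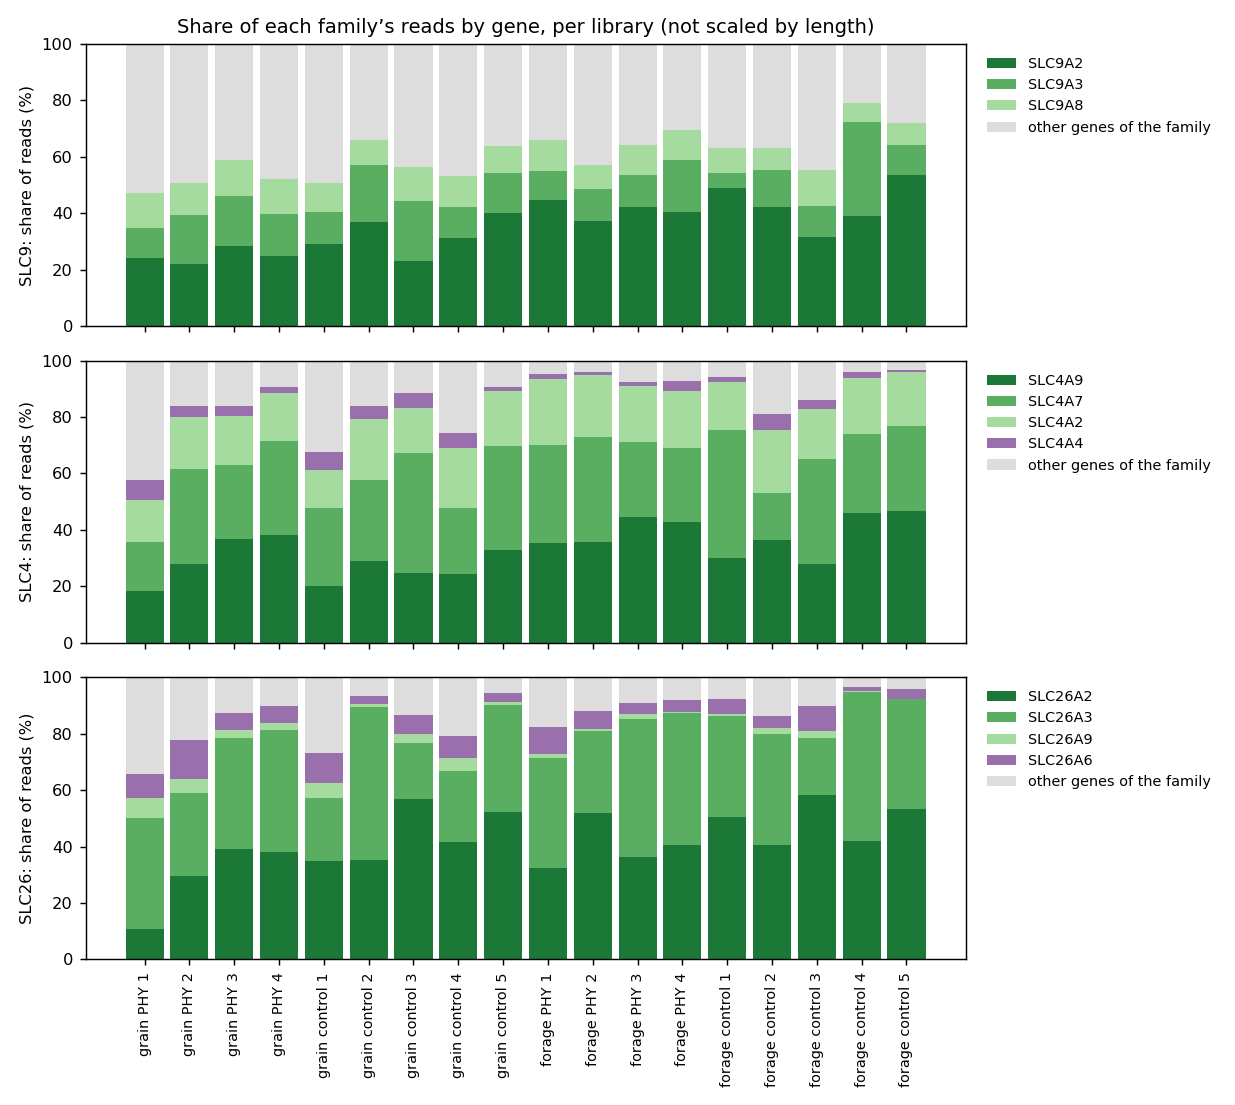
Share of the reads of each family (SLC9, SLC4 and SLC26) taken by its genes in each of the 18 libraries, as stacked bars in percent of reads, not scaled by length. SLC9A2 averages 28.9% of SLC9 reads in grain libraries and 42.3% in forage libraries, and SLC26A2 with SLC26A3 hold most SLC26 reads on average in each group.

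The first comparison asked how the papillae differed on high grain from forage, over both arms. The forage biopsy always came before the grain biopsy, so diet cannot be told apart from biopsy order and time. Of the 9 transporters, SLC9A2, SLC4A9 and SLC4A2 were lower on grain and SLC26A9 was higher, at a Benjamini-Hochberg adjusted p under 0.05 (edgeR quasi-likelihood F test), though SLC4A2 turned to the other direction when library sizes were total reads with no TMM. Of all 22202 genes tested, 31.9% were called, 18.1% as higher and 13.8% as lower. The log2 changes of the transporters had a median of −0.33 and were negative for 8 of 9, beside a median of 0.20 and 44.0% negative over all genes tested. With total reads and no TMM the estimates of SLC9A3, SLC9A8, SLC4A2, SLC4A7, SLC26A2 and SLC26A3 turned positive, and the median over all genes was 0.75. All 9 passed the filter on low counts. For no transporter were all grain libraries on one side of all forage libraries, a pattern that 0.207% of genes tested showed. All 4 calls were lost when the olfactory receptor level was a covariate or when the 3 shallowest libraries, all on grain, were left out, and no gene of the table was called in either refit. They were also lost without grain_PHY replicate 1, the shallowest library, with 1 gene of the table still called. With any 1 library left out the log2 changes ran from −1.07 to −0.91 for SLC9A2, from −0.70 to −0.47 for SLC4A9, from −0.40 to −0.30 for SLC4A2 and from 1.49 to 1.88 for SLC26A9. The highest adjusted p of SLC9A2 among these refits was 0.0616.

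The share of genes called depended on their level, which bears on how the 4 calls read. Among the 4284 genes with a mean log2 CPM of 4 to 6, the class of SLC9A2, SLC9A3, SLC4A2, SLC4A7 and SLC4A9, 40.3% were called lower and 0.98% higher, with a median log2 change of −0.41. Among the 6260 genes of 0 to 2, the class of SLC26A9, 38.1% were called higher and 0.288% lower, with a median of 1.16. The class of 2 to 4, which holds SLC9A8, had 11.5% called higher and 11.3% lower, and the class over 6, which holds SLC26A2 and SLC26A3, had 1.22% higher and 51.5% lower. So 3 of 5 in the first class were called lower where 40.3% of its genes were, and the direction of all 4 calls was the usual one for genes of that level. Within its class 18 of 4284 genes had a lower log2 change than SLC9A2. That number was 678 for SLC4A9 and 2490 for SLC4A2, while 1318 of 6260 genes had a higher one than SLC26A9.

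**Figure D3:**
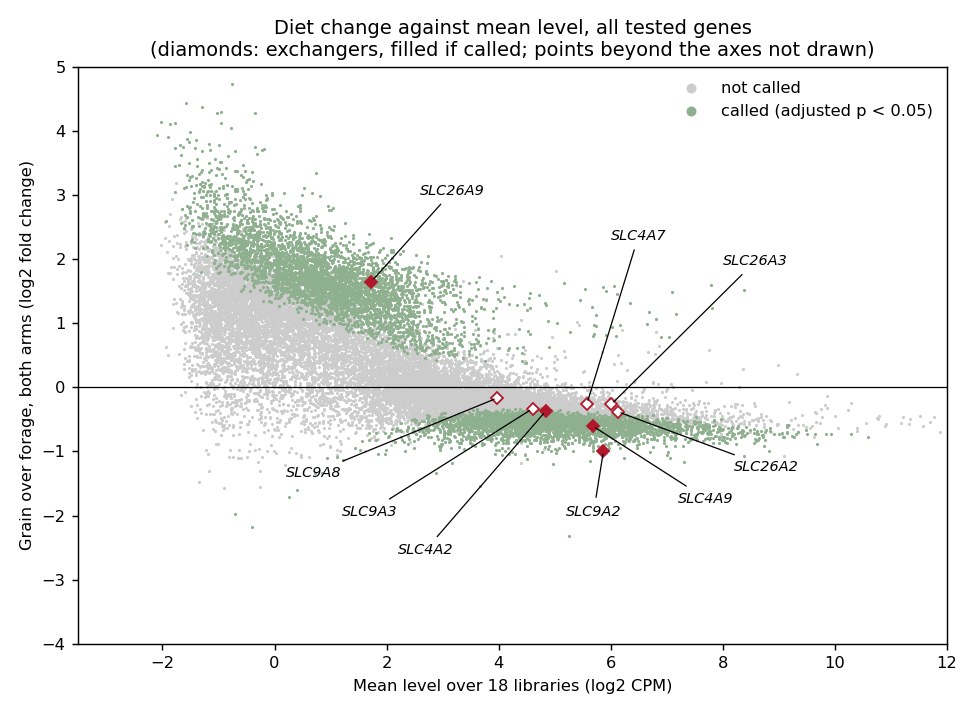
Log2 fold change on grain against forage, over both arms, plotted against mean log2 CPM for all genes tested, with the 9 transporters marked. The cloud runs from rises among weakly read genes to falls among strongly read genes (medians 1.16 at a mean log2 CPM of 0 to 2 and −0.54 over 6), and SLC9A2 lies near the lower edge of its class.

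SLC9A2 (ENSBTAG00000001706) had the largest fall of the 9. It stood at 26.97, 24.03, 42.2 and 36.9 CPM in grain_PHY and at 34.9, 63.4, 28.3, 35.3 and 63.6 CPM in grain_control. In forage_PHY it stood at 75.5, 54.3, 72.8 and 73.2 CPM and in forage_control at 83.7, 64.4, 41.2, 111 and 119 CPM. All 9 grain libraries lay below the forage median and 6 below every forage library. The mean was 39.5 ± 14.7 CPM on grain and 77.2 ± 24.9 CPM on forage (SD, n = 9 each), a log2 change of −0.99 ± 0.21 (SE) or 1.98-fold lower (adjusted p = 0.0201, edgeR). By p it ranked 94th of 22202 genes. Its reads numbered 249 to 1540 on grain and 618 to 3675 on forage. With library sizes from total reads and no TMM, the change was −0.52 (adjusted p = 0.0696), and with the olfactory receptor covariate −0.49 (adjusted p = 0.999).

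SLC9A3 (ENSBTAG00000004629) did not pass the test, with 21.0 ± 7.49 CPM on grain and 27.4 ± 25.96 CPM on forage (SD, n = 9 each; log2 change −0.33 ± 0.37, adjusted p = 0.46). It stood at 11.7, 19.2, 26.1 and 21.9 CPM in grain_PHY and at 14.02, 34.7, 26.02, 12.8 and 22.7 CPM in grain_control. In forage_PHY it stood at 17.3, 16.2, 19.8 and 33.1 CPM and in forage_control at 9.13, 19.7, 14.3, 94.4 and 23.0 CPM. The library at 94.4 CPM, forage_control replicate 4, decided the sign, since the log2 change without it was 0.15. SLC9A8 (ENSBTAG00000008969) did not pass either, at 12.2 to 18.6 CPM on grain and 12.01 to 19.7 CPM on forage (log2 change −0.17 ± 0.14, 95% interval −0.47 to 0.13, adjusted p = 0.323).

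SLC4A9 (ENSBTAG00000021775) was 1.52-fold lower on grain. It stood at 27.5, 42.8, 52.7 and 62.8 CPM in grain_PHY and at 27.6, 32.01, 39.5, 32.7 and 45.6 CPM in grain_control. In forage_PHY it stood at 52.1, 58.4, 68.6 and 72.3 CPM and in forage_control at 58.2, 48.2, 50.2, 65.1 and 80.3 CPM. Of the 9 grain libraries 8 lay below the forage median and 7 below every forage library. The mean was 40.3 ± 11.97 CPM on grain and 61.5 ± 10.9 CPM on forage (SD, n = 9 each), a log2 change of −0.60 ± 0.17 (adjusted p = 0.0224, edgeR). With library sizes from total reads and no TMM the change was −0.17 (adjusted p = 0.358), and with the olfactory receptor covariate −0.16 (adjusted p = 0.999).

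SLC4A2 (ENSBTAG00000011226) had the smallest change of those called. It stood at 22.2, 28.1, 25.1 and 27.5 CPM in grain_PHY and at 18.5, 23.5, 24.8, 28.4 and 26.6 CPM in grain_control. In forage_PHY it stood at 34.4, 35.7, 30.7 and 33.9 CPM and in forage_control at 32.97, 29.4, 31.4, 28.1 and 33.2 CPM. All 9 grain libraries lay below the forage median and 7 below every forage library, and the coefficient of variation within a group was 6.31% to 15.4%. The mean was 24.97 ± 3.21 CPM on grain and 32.2 ± 2.49 CPM on forage (SD, n = 9 each), 1.29-fold lower at a log2 change of −0.37 ± 0.13 (adjusted p = 0.034, edgeR). The direction turned with the scaling, since total reads with no TMM gave a log2 change of 0.13 (adjusted p = 0.563), while the olfactory receptor covariate gave −0.24 (adjusted p = 0.999). The call was also lost without any 1 of 8 libraries, at adjusted p of 0.0502 to 0.0955: forage_control replicates 1 and 5, forage_PHY replicates 1 and 2, grain_control replicates 1 and 2, and grain_PHY replicates 1 and 3.

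SLC4A7 (ENSBTAG00000018227) did not pass the test. It ranged from 26.4 to 67.4 CPM on grain and from 22.4 to 88.7 CPM on forage (log2 change −0.26 ± 0.22, 95% interval −0.74 to 0.22, adjusted p = 0.337). Its lowest and its highest library were both in forage_control.

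SLC26A9 (ENSBTAG00000001382) was the member called higher, from few reads. Its counts were 69, 50, 68 and 40 reads in grain_PHY and 73, 67, 82, 71 and 53 reads in grain_control, against 27, 23, 45 and 18 reads in forage_PHY and 20, 50, 54, 18 and 11 reads in forage_control. As CPM these were 7.47, 4.64, 4.09 and 3.93 in grain_PHY and 8.82, 2.76, 4.70, 5.205 and 2.48 in grain_control. In forage_PHY it stood at 0.855, 0.717, 2.49 and 1.32 CPM and in forage_control at 1.51, 2.99, 3.60, 0.736 and 0.355 CPM. In CPM all 9 grain libraries lay above the forage median and 7 above every forage library. Raw counts also ran higher on grain, with overlap, at 40 to 82 reads against 11 to 54 on forage, although grain libraries averaged fewer reads in all. Raw olfactory receptor reads behaved likewise, with 525 to 1365 on grain and 424 to 1030 on forage. The mean of SLC26A9 was 4.90 ± 2.07 CPM on grain and 1.62 ± 1.14 CPM on forage (SD, n = 9 each), a log2 change of 1.65 ± 0.40 or 3.14-fold (adjusted p = 0.0202, edgeR). With library sizes from total reads and no TMM it was 2.32 (adjusted p = 0.00949), and with the olfactory receptor covariate 0.59 (adjusted p = 0.999). Markers of oxyntic or renal cells, of which 4 of 5 were in the table, were summed. They reached 7.08 to 19.9 CPM in grain_PHY and 5.37 to 16.2 CPM in grain_control, against 2.79 to 8.04 CPM in forage_PHY and 4.07 to 9.74 CPM in forage_control. ATP4A and UMOD were called higher on grain, while ATP4B (log2 change 0.48, edgeR adjusted p = 0.559) and AQP2 (−0.26, edgeR adjusted p = 0.45) were not. Of genes at a mean log2 CPM of 0 to 2, 38.1% were called higher. Columnar gut markers had 2 of 4 tested called higher and red blood cell markers 2 of 3. No sign particular to oxyntic or renal cells is therefore read from these calls. The part of such background in the rise of SLC26A9 was not tested further.

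**Figure D4:**
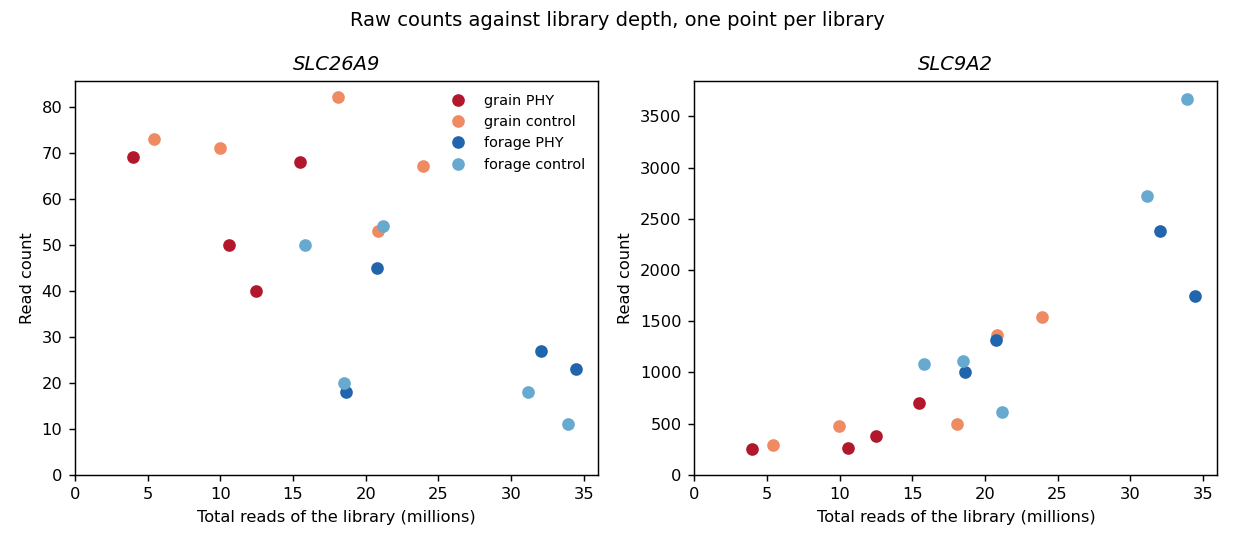
Raw reads on SLC9A2 and on SLC26A9 in each library plotted against the total reads of the library, coloured by group. SLC26A9 had 40 to 82 reads in the shallower grain libraries and 11 to 54 in the deeper forage libraries, while SLC9A2 had 249 to 1540 reads on grain and 618 to 3675 on forage.

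SLC26A2 and SLC26A3, the strongly read members of their family, spread widely among libraries of a group. SLC26A2 (ENSBTAG00000014615) stood at 11.6, 27.4, 55.7 and 60.1 CPM in grain_PHY and at 58.1, 96.3, 81.1, 47.5 and 115 CPM in grain_control. It stood at 20.02, 59.1, 55.8 and 85.5 CPM in forage_PHY and at 79.4, 56.2, 84.7, 141 and 114 CPM in forage_control. Diets overlapped over most of the range, with 61.5 ± 32.4 CPM on grain and 77.3 ± 35.5 CPM on forage (SD, n = 9 each; log2 change −0.38 ± 0.29, adjusted p = 0.273). SLC26A3 (ENSBTAG00000015547) stood at 42.2, 27.6, 56.3 and 68.6 CPM in grain_PHY and at 37.6, 149, 28.5, 29.03 and 83.5 CPM in grain_control. It stood at 24.1, 32.8, 75.8 and 97.8 CPM in forage_PHY and at 56.6, 55.0, 29.2, 178 and 83.1 CPM in forage_control. In each control group 1 library lay well above the rest, and the diets did not differ beyond this spread (58.0 ± 39.3 CPM on grain and 70.3 ± 47.8 CPM on forage, SD, n = 9 each; log2 change −0.27 ± 0.40, 95% interval −1.12 to 0.58, adjusted p = 0.581).

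Within each arm no transporter passed the test of grain against forage, and 0% of all genes tested did, while 8820 genes in PHY cows and 2518 in control cows had an unadjusted p under 0.05. In PHY cows the log2 change was −1.08 ± 0.32 for SLC9A2, −0.39 ± 0.19 for SLC4A2, −0.44 ± 0.25 for SLC4A9 and 1.91 ± 0.60 for SLC26A9, at edgeR adjusted p of 0.0696, 0.123, 0.184 and 0.0696. In control cows these changes were −0.89 ± 0.28 for SLC9A2, −0.35 ± 0.17 for SLC4A2, −0.77 ± 0.23 for SLC4A9 and 1.39 ± 0.53 for SLC26A9, each at an adjusted p of 0.432. The direction in each arm was that of both arms together for these 4 genes. The change over both arms is the mean of the changes in PHY and in control cows. Since the genes were picked by that mean, the shared direction is no separate evidence. Grain and forage ranges did not overlap for SLC9A2, SLC4A2 and SLC26A9 in PHY cows, where 30% of all genes tested did not overlap, and for SLC4A9 in control cows, where 1.35% did not. DESeq2, limma voom with quality weights and a fit to only the PHY groups each called SLC9A2 and SLC26A9 in PHY cows, among 5384, 7924 and 4353 genes of the whole table. In control cows DESeq2 and limma voom called 0 genes.

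**Figure D5:**
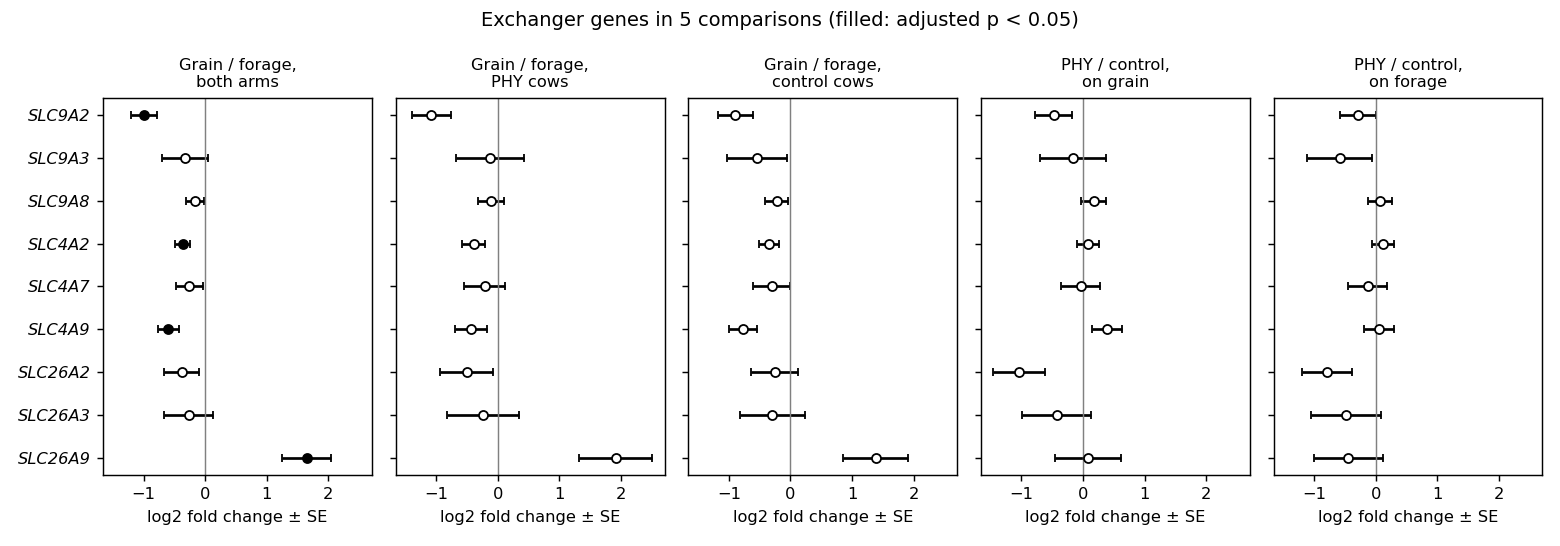
Log2 fold change ± SE for each transporter (rows) in 5 comparisons (panels) of grain with forage and of PHY with control. Filled points have an adjusted p under 0.05 (edgeR): SLC9A2, SLC4A2, SLC4A9 and SLC26A9 on grain against forage over both arms, and no point in the other comparisons. With total reads and no TMM, SLC4A2 would stand at 0.13.

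The next comparison set PHY cows against control cows on each diet. No transporter passed the test on either diet, 0% of all genes tested did, and 571 genes on grain and 356 on forage had an unadjusted p under 0.05 (edgeR). DESeq2 and limma voom also called 0 genes on each diet. SLC26A2 had the largest difference on both diets. It averaged 38.7 ± 23.2 CPM in grain_PHY (SD, n = 4) and 79.7 ± 27.7 CPM in grain_control (SD, n = 5), a log2 difference of −1.04 ± 0.42 with a 95% interval of −1.93 to −0.15 (edgeR adjusted p = 0.999). On forage it averaged 55.1 ± 26.9 CPM in PHY cows (SD, n = 4) and 95.1 ± 32.9 CPM in control cows (SD, n = 5), a log2 difference of −0.79 ± 0.41 with a 95% interval of −1.67 to 0.09 (edgeR adjusted p = 0.99994). On grain its unadjusted p was 0.0197 and ranked 152nd of 22202 genes (edgeR), and the groups overlapped between 47.5 and 60.1 CPM. No transporter had groups without overlap on either diet, where 0.716% of genes on grain and 0.554% on forage had. The same 9 cows gave the libraries of both diets, so the 2 differences are not independent. SLC9A2 differed by −0.47 ± 0.30 on grain (95% interval −1.12 to 0.17) and by −0.28 ± 0.30 on forage (95% interval −0.92 to 0.35). The other 7 ran from −0.43 for SLC26A3 to 0.39 for SLC4A9 on grain, and from −0.58 for SLC9A3 to 0.12 for SLC4A2 on forage.

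The last comparison asked whether the response to grain differed between PHY and control cows. None of the 9 passed the test of this difference, nor did any other gene (0%), with 442 genes at an unadjusted p under 0.05 (edgeR) and 0 genes called by DESeq2 or limma voom. The estimates ran from −0.25 ± 0.57 for SLC26A2 to 0.53 ± 0.78 for SLC26A9 on the log2 scale. The 95% interval was −1.09 to 0.71 for SLC9A2 and −0.39 to 1.06 for SLC4A9, so differences as large as each gene's own change with diet lay inside, on the negative side for SLC9A2 and on the positive side for SLC4A9.

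The rest of the 3 families moved otherwise on grain. Of 25 further symbols, 23 were in the table and tested, and 12 were called higher and 1 lower on grain over both arms, with a median log2 change of 1.11. Of all genes tested, 18.1% were called higher and 13.8% lower, and among weakly read genes, at a mean log2 CPM of 0 to 2, 38.1% were called higher. With total reads and no TMM, 20 of the 23 were called higher and 0 lower. The largest of the rises were those of SLC26A4, SLC26A8, SLC9B1 and SLC4A1, at log2 changes of 2.02, 1.88, 1.77 and 1.67. All 12 averaged at most 6.38 CPM on either diet, in the range where rises were common in the whole table. SLC26A4 (pendrin), a chloride-iodide-bicarbonate exchanger of thyroid, inner ear and kidney, averaged 2.80 CPM on grain and 0.716 CPM on forage. SLC4A4, which carries sodium and bicarbonate, averaged 6.33 CPM on grain and 3.73 CPM on forage (adjusted p = 0.0649). SLC26A6, an apical anion exchanger, averaged 10.1 CPM on grain and 7.52 CPM on forage (adjusted p = 0.0882).

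Of 20 symbols for regulators and scaffolds of the exchangers, 17 were tested, of which 3 were called higher and 8 lower on grain, with a median log2 change of −0.44, where 18.1% of all genes tested were called higher and 13.8% lower. Of genes at a mean log2 CPM of 4 to 6, 40.3% were called lower, so no change particular to the regulators is read from this count. EZR (ezrin), which links apical membrane proteins to the actin cytoskeleton, averaged 205 ± 90.1 CPM on grain and 353 ± 82.8 CPM on forage (SD, n = 9 each; log2 change −0.81 ± 0.24). CHP1 and CHP2, calcium-binding partners of sodium-proton exchangers, changed by −0.67 and −0.80, and AHCYL2, kin of the bicarbonate transport activator AHCYL1, by −0.72. The 3 called higher were CFTR, an anion channel, and the kinases SGK2 and STK39, at log2 changes of 1.44, 1.55 and 1.27 and grain means of 6.01, 3.11 and 4.04 CPM. With library sizes from total reads and no TMM, 0 regulators were called lower and the 3 rises stayed called.

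Of 30 genes for proton and bicarbonate partners, all were tested, and 4 were called higher and 9 lower on grain, with a median log2 change of −0.26. These counts too stand beside 18.1% higher and 13.8% lower in the whole table, and beside 40.3% and 51.5% lower among genes at a mean log2 CPM of 4 to 6 and over 6. CA12, a membrane-bound carbonic anhydrase that interconverts carbon dioxide and bicarbonate, averaged 297 ± 111 CPM on grain and 507 ± 70.6 CPM on forage (SD, n = 9 each; log2 change −0.79 ± 0.24, adjusted p = 0.0245). ATP6V1F and ATP6V0D1, subunits of the vacuolar proton pump, changed by −0.79 and −0.72. The 4 called higher were the proton pump subunits ATP4A and ATP12A, the carbonic anhydrase CA14 and the proton channel HVCN1, with grain means of 4.32, 4.39, 3.99 and 2.07 CPM. SLC16A1 (MCT1), a monocarboxylate transporter, averaged 710 CPM on grain and 918 CPM on forage (adjusted p = 0.114), and CA2 1.16 CPM on grain and 0.84 CPM on forage (adjusted p = 0.421). With total reads and no TMM, 6 partners were called higher and 1 lower, CA12 at −0.42 (adjusted p = 0.0346), and the median log2 change was 0.17. No gene of these lists was called in any other comparison, nor over both arms with the olfactory receptor covariate or without the 3 shallowest libraries.

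By likeness of their levels over the 18 libraries (Pearson r of log2 CPM, among genes that have a symbol and average 5 CPM or more, as a description), SLC9A2 was nearest to TSKU at 0.94, ETHE1 at 0.93 and FAM160A1 at 0.93. SLC4A9 was nearest to PROM2 at 0.94, TMC6 at 0.93 and SART1 at 0.93. SLC4A2 was nearest to ERF at 0.92, BICRA at 0.92 and PNPLA2 at 0.91. SLC26A9 was nearest to STAB2, FBXO16 and DSCAM, each at 0.96. For SLC4A7 the nearest were ACACA at 0.87, TANC2 at 0.87 and GIT2 at 0.86, and for SLC9A8 PPP6R2 at 0.87, ZNF572 at 0.83 and CDK10 at 0.82. For SLC26A2 they were NEK4 at 0.86, FBXW12 at 0.86 and CWC22 at 0.84, for SLC26A3 FAM151B at 0.84, TRIM21 at 0.82 and ZNF518A at 0.81, and for SLC9A3 PHACTR4 at 0.81, ZNF248 at 0.80 and PDK3 at 0.80. The libraries share diet and depth differences, which enter these values.

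Among the 36 pairs of transporters, correlated over the 9 libraries of each diet, none of the 72 relations had an adjusted p under 0.05 by exact permutation. PHY and control libraries were pooled within a diet, and differences in depth and background among them were not taken out. On grain the weakly read SLC26A9 had r = −0.72 with SLC9A2 and −0.68 with SLC26A3. The highest on grain was that of SLC9A2 with SLC26A3, apical partners for sodium chloride uptake in the gut, at r = 0.87 (exact permutation p = 0.0022, adjusted p = 0.159) and rho = 0.85 (exact permutation p = 0.00607, adjusted p = 0.26). Without the 2 libraries farthest from the median of SLC9A2, r was 0.64. Libraries far out for SLC26A3 were not looked for. On forage the pair of SLC9A2 and SLC26A3 had r = 0.70 (exact permutation p = 0.0347, adjusted p = 0.277), with rho = 0.58 (exact permutation p = 0.108). Without the 2 forage libraries farthest from the median of SLC9A2, r was 0.68.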

How the data were processed

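RNA from rumen papillae was extracted with the NucleoSpin miRNA kit, and libraries were made from 10 ng with the SMART-Seq Stranded Total RNA kit, per the labels' protocols. Of the deposited tables, one has raw counts of 27270 genes as whole reads. The other has a normalized signal, which the authors made by dividing those counts by a single factor for each library (checked to a relative tolerance of 0.001), so the counts were used. The submitters' processing notes name bcl2fastq 2.20, DESeq2 and the build bosTau9. For the aligner, counter, annotation and strand the entry is "not given in the sources used here", so overlapping and antisense genes could share reads. Names of 7506 genes are only identifiers, and 279 genes had 0 reads everywhere.

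Counts were tested with edgeR 4.0.16 (R 4.3.3): filterByExpr by group, TMM, 1 mean per group over all 18 libraries, no covariate, robust quasi-likelihood F test, and Benjamini-Hochberg adjustment over all 22202 genes tested (biological coefficient of variation 51.4%). The procedure was tested on simulated independent counts, with no pairing of cows and no background linked to diet. That test cannot show how such features affect the calls. SE is the absolute log2 change over the root of F, and 95% intervals use 14 residual degrees of freedom. The F test adds prior degrees of freedom, so the intervals are wider than its p-values imply. For SLC4A2 in control cows the unadjusted p was 0.0493 (edgeR), with an interval of −0.70 to 0.013. Alternatives used DESeq2 1.42.0 and limma 3.58.1, and one was chosen after seeing the data, library sizes from total reads with no TMM. Depth, background and pairs of members were compared by two-sided exact permutation. Likeness used log2 CPM with a prior count of 2.

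Named were all 9 members, up to 4 called genes per list, direction and comparison with the largest change and at least 1 CPM in the higher group, 6 preset genes, and 3 nearest genes per member; some genes this rule names are not reported here. The members and lists were chosen with earlier results of these data known. Levels were to be scaled by length, which was not possible with the references used here. Counting error alone limits genes of few reads, and no library was dropped or imputed in the fits reported first.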

Additional observations from a re-analysis of the deposited data

Results flagged for a closer look

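Of 36 sets of group values (9 transporters in 4 groups), 2 held a library far from the others by Dixon's criterion, where chance flags about 1 in 20. SLC9A2 stood at 54.3 CPM in forage_PHY replicate 2, against 72.8 to 75.5 CPM in the other 3 libraries of that group, a gap of 0.875 of the range where 0.829 is the limit. SLC9A3 stood at 94.4 CPM in forage_control replicate 4, against 9.13 to 23.0 CPM in the other 4 libraries, a gap of 0.837 of the range where 0.71 is the limit. That library also held the highest SLC26A3 level, 178 CPM, and the highest SLC26A2 level, 141 CPM, of all 18. The cause was not tested.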

How the results depend on the processing

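The median log2 change of all genes on grain over both arms was 0.20, and it shifted to 0.75 with total reads and no TMM, 0.54 with DESeq2, 0.41 with no filter, 0.29 with DESeq2 size factors and 0.03 with the olfactory receptor covariate. Of the 4 transporters called over both arms, 0 were called with the covariate, 0 without the 3 shallowest libraries, 1 with total reads and no TMM (SLC26A9), and 0 to 4 with 1 library left out. SLC4A2 was also lost with DESeq2 size factors (−0.29, adjusted p = 0.0517) and after thinning (−0.15, adjusted p = 0.317). In PHY cows 2 were called with DESeq2, with voom and with only the groups compared, against 0, and 0 to 2 with 1 library left out, 2 without forage_control replicate 5 or grain_control replicate 1. Other comparisons gave 0 calls throughout. Estimates that changed sign over both arms were, with the covariate, SLC9A3 at 0.55, SLC9A8 at 0.073, SLC4A7 at 0.18, SLC26A2 at 0.42 and SLC26A3 at 0.45. With total reads and no TMM they were SLC9A3 at 0.11, SLC9A8 at 0.33, SLC4A2 at 0.13, SLC4A7 at 0.20, SLC26A2 at 0.011 and SLC26A3 at 0.22. SLC9A3 was at 0.28 with voom, SLC9A8 at 0.088 after thinning and SLC26A3 at 0.0077 without the 3 shallowest libraries. With 1 library left out, SLC9A3 ran from −0.45 to 0.15. SLC4A2 with no TMM was at 0.14 in control cows and 0.11 in PHY cows, and SLC4A9 with the covariate at 0.11 in PHY cows. The difference of the diet responses changed sign for SLC26A2 with voom (0.032) and the covariate (0.055), ran from −0.55 to 0.071 with 1 library left out, and was −0.20 for SLC26A9 with the covariate. Of 522 member estimates under other settings 70 changed sign, and of 972 with 1 library left out 42 did. Of these 112, 1 had an adjusted p under 0.05 in either fit. Except where a setting tests fewer samples, the cause was not tested. No paired analysis was possible because no label links a library to its cow, and the labels give the groups no shared replicate numbers. Depth limits SLC26A9 most, with 11 to 82 reads per library.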
